A study of Mus musculus with 4 samples.

Results

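The interleukin-2 (IL-2) receptor, its JAK kinases and the STAT5 transcription factors were examined in regulatory T cells of the mouse spleen. The 10 genes considered were the receptor chains Il2ra, Il2rb and Il2rg, the kinases Jak1 and Jak3, the transcription factors Stat5a and Stat5b, and the feedback inhibitors Cish, Socs1 and Socs2. They were matched by gene symbol in the platform's annotation of the arrays, and no value decided which were matched, although the set was proposed with earlier results of these data known. Of the 10 genes, 8 had a transcript cluster (the array's unit of measurement) of their own among 30492 named genes. Jak3 had only 1 cluster, which the annotation also assigns to Insl3, and Il2rg was not analysed here because the annotation used lists no cluster for it.

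Regulatory T cells depend on IL-2 made by other T cells, since they make little of it themselves. IL-2 binds a receptor of alpha, beta and gamma chains, the kinases JAK1 and JAK3 on the beta and gamma chains phosphorylate STAT5, and STAT5 then activates target genes that include inhibitors of the same pathway. In these cells the pathway is known for sustaining Foxp3 expression and survival.

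The arrays labelled KO (replicates 1 and 2) came from mice with the transgene B6-Tg(Foxp3EGFP-cre)1cJbs/J crossed to a BMI1-flox allele on C57BL/6, which is designed to remove the Polycomb subunit gene Bmi1 in cells that express Foxp3. The arrays labelled WT (replicates 1 and 3) came from mice with the same Cre transgene on C57BL/6 and no floxed allele, so both groups carried Cre and green fluorescent protein. The mice were 7 to 8 weeks old, and 15000 to 40000 fluorescent CD4 cells were collected per sample. The sample titles and treatment field describe unstimulated cells, whereas the design text mentions CD3/CD28 stimulation, and the conflict could not be resolved. The design text also lists high CD25, the protein of Il2ra, among the marks of the isolated cells. If that gate was applied, Il2ra helped to choose the cells in both groups.

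The targeted gene went against its label: Bmi1 read 9.58 and 9.91 on the log2 scale in the arrays labelled KO, against 8.98 and 8.98 in the arrays labelled WT (difference 0.77, SE 0.16, limma adjusted p 0.300). Which exons its cluster covers and which were floxed is not given in the sources used here, so every direction below rests on the labels alone. Of 10 measured markers of the labelled cell type 0 passed an adjusted p under 0.05, and 7 had groups that did not overlap, 5 with KO higher and 2 with KO lower. Over all genes the groups did not overlap for 38.4%, with KO higher for 20.9% and KO lower for 17.5%. Differences of the 10 markers ran from -1.33 for Lrrc32 (SE 0.25, limma adjusted p 0.298) to 1.15 for Gpr83 (SE 0.28, limma adjusted p 0.354). Cd3e, a T cell receptor subunit gene, had 0.56 (SE 0.06, limma adjusted p 0.141). Foxp3 shared its cluster with another gene and was not read. In mean level, 0 of 10 measured markers of regulatory T cells lay below the median gene of 5.03, against 6 of 11 of B and plasma cells, 7 of 10 of myeloid and dendritic cells and 3 of 5 of natural killer cells. Of 5 measured markers of conventional and CD8 T cells only 1 lay below it, so these levels do not set regulatory T cells apart from other T cells. The CD8 gene Cd8a read 4.08 and 4.07 in the arrays labelled KO and 4.12 and 4.23 in the arrays labelled WT, below the array medians of 4.65 to 4.72, whereas Cd8b1 read 10.71 and 11.26 in the arrays labelled KO, against 9.74 and 10.78 in those labelled WT. The whole table gave 2 genes with an adjusted p under 0.05 (limma, Benjamini-Hochberg over 30492 genes), both with KO above WT: Snord14e and Igf2bp3, which are named after their values were seen and are not genes of this pathway. Nothing in the labels says whether samples came from separate animals, so a p-value here reflects only how much these samples scatter, which may be technical, and having 4 arrays limits precision.

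Promoter stretches of the feedback genes Cish and Socs1 are shown, Cish for letters tied to STAT5, Socs1 for letters tied to interferon regulatory factors. Both come from RefSeq on mouse build GRCm38.p6 and run 5′ to 3′ on the gene's strand from 250 bases before the annotated start to 30 bases into the transcript. Cish lies at chr9:107296409-107296688 on the plus strand, with matches to TTCNNNGAA, the core letters that STAT5 prefers, in capitals. Socs1 lies at chr16:10785507-10785786 on the minus strand, with matches to AANNGAAA, core letters of sites bound by interferon regulatory factors, in capitals.
Cish: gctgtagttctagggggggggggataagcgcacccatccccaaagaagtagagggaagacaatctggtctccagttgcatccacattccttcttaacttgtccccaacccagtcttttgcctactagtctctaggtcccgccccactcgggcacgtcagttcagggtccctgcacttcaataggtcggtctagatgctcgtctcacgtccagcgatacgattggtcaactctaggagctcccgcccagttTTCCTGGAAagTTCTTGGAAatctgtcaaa
Socs1: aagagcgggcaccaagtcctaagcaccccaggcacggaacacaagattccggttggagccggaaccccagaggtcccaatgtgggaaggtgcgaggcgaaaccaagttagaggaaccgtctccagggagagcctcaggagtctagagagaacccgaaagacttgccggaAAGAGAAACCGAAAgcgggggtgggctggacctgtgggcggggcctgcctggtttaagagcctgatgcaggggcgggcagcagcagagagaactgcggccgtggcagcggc

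In Cish the matches were TTCCTGGAA and TTCTTGGAA, and their first bases were bases 1 and 12 of the transcript, counting its first base as 1. In Socs1 the matches were AAGAGAAA and AACCGAAA, which overlap each other and start 81 and 75 bases before the transcript. Both strands were searched over windows that reach 50 bases into the transcript. TTCNNNGAA occurred in 8.30% of the 32851 RefSeq windows of that length, and more than 1 match in 0.457%. AANNGAAA occurred in 23.9%, and more than 1 match in 5.34%. RefSeq windows were found for 8 of the 10 genes, 10 windows in all, and among them TTCNNNGAA was in the Cish window only. AANNGAAA was in 4 of the 10 windows, those of Socs1, Il2rg and 1 of 2 for Stat5b, and that of Cish beyond the stretch printed. A match is a description of the letters and not a measured binding site.

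None of the 8 measured genes differed between genotypes at an adjusted p under 0.05, a rule that 0.00656% of all genes met. Their KO minus WT differences ran from -0.37 (Socs1) to 0.33 (Il2rb) on the log2 scale, with a median of -0.04, against a median of 0.01 over all genes. Of the 8 genes, 2 had a higher and 6 a lower mean in the arrays labelled KO. That split was 3 and 5 after median-centring and 1 and 7 after a further quantile normalization, where the median was -0.11. It was 4 and 4 without KO replicate 2 and also without WT replicate 3, with medians of 0.01 and 0.00. Socs1 alone had an unadjusted limma p under 0.05, as did 10.1% of all genes in either direction, and Socs1 alone had groups that did not overlap, as did 38.4% of all genes. All 8 intervals, each at 95% and taken singly, excluded a 2-fold difference in either direction, as did those of 95.4% of all genes. For 5 of the 8, namely Il2ra, Jak1, Stat5a, Cish and Socs2, the interval also excluded a 1.5-fold difference, as did that of 76.2% of all genes.

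**Figure D1:**
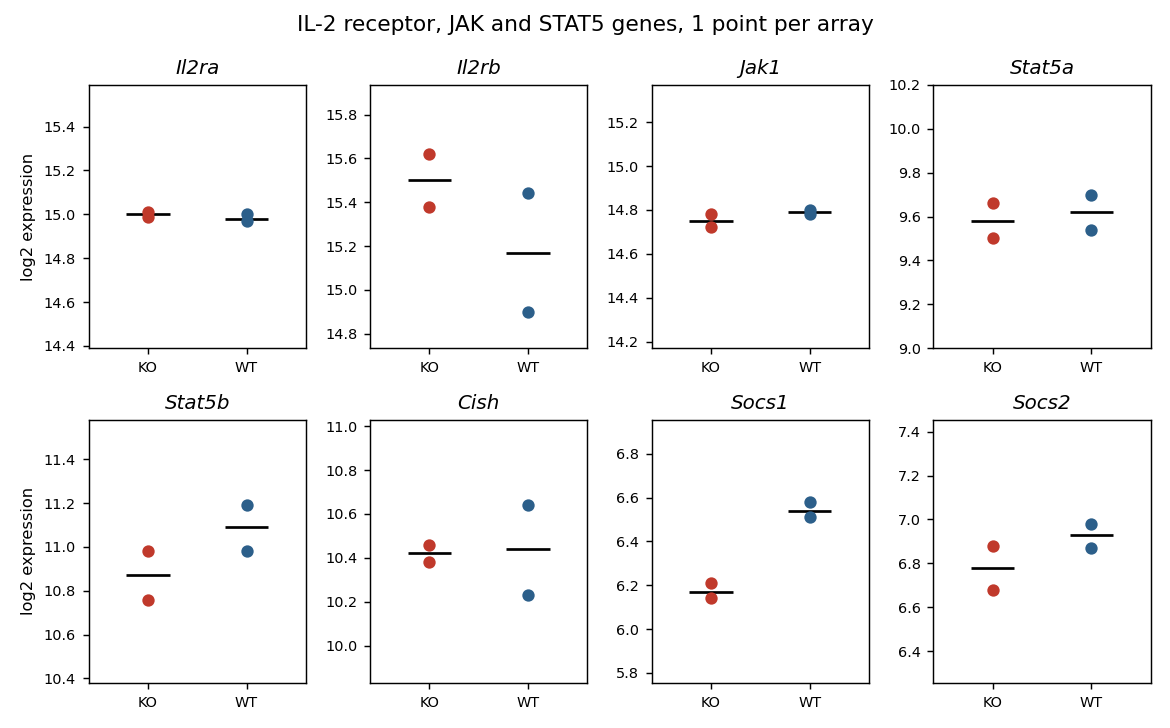
Log2 expression of the 8 measured genes, with 1 point per array, the arrays labelled KO on the left and those labelled WT on the right, and a black line at each group's mean. Every vertical axis spans the same number of log2 units but not the same range, and the groups are apart only for Socs1 (6.14 and 6.21 in the arrays labelled KO, against 6.51 and 6.58 in those labelled WT).

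Il2ra encodes the alpha chain CD25, which raises the receptor's affinity for IL-2. It read 15.01 and 14.99 in the arrays labelled KO, against 15.00 and 14.97 in the arrays labelled WT. The groups overlap, and no array is apart from the others. The difference was 0.02 (SE 0.07, limma adjusted p 0.967), and its 95% interval corresponds to 0.89 to 1.14 times the WT level.

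Il2rb encodes the beta chain, which carries the signal into the cell and is shared with the IL-15 receptor. It read 15.62 and 15.38 in the arrays labelled KO, against 14.90 and 15.44 in the arrays labelled WT (replicates 1 and 3). WT replicate 1 is lower than the other 3 arrays, and WT replicate 3 lies between the KO arrays. The difference was 0.33 (SE 0.20, limma adjusted p 0.655), smaller than the gap of 0.54 between the WT arrays. Without WT replicate 1 the difference was 0.06, and without WT replicate 3 it was 0.60, so its size rests on which WT array is read.

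Jak1 encodes the kinase bound to the beta chain. It read 14.78 and 14.72 in the arrays labelled KO, against 14.78 and 14.80 in the arrays labelled WT. The groups touch at 14.78, and the difference was -0.04 (SE 0.07, limma adjusted p 0.914), which bounds the ratio between 0.85 and 1.11. JAK3 is the kinase bound to the gamma chain. The cluster assigned to both Jak3 and Insl3 read 8.97 and 8.90 in the arrays labelled KO, against 8.93 and 9.05 in the arrays labelled WT. These values overlap. The difference of that cluster was -0.05 (SE 0.15, limma adjusted p 0.953 over 65528 clusters), and which of the genes it reads cannot be told apart.

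Stat5a and Stat5b encode closely related proteins, the transcription factors that IL-2 activates. Stat5a read 9.66 and 9.50 in the arrays labelled KO, against 9.54 and 9.70 in the arrays labelled WT. Stat5b read 10.98 and 10.76 in the arrays labelled KO, against 10.98 and 11.19 in the arrays labelled WT. The Stat5a groups overlap, and the Stat5b groups touch at 10.98. The differences were -0.04 (SE 0.14, limma adjusted p 0.959) for Stat5a and -0.22 (SE 0.15, limma adjusted p 0.712) for Stat5b. Without an array in turn Stat5b ranged from -0.32 (without KO replicate 1 or WT replicate 1) to -0.10 (without KO replicate 2). The Stat5b interval corresponds to 0.66 to 1.12 times the WT level. Which bases the probes of each cluster read is not given in the sources used here, so how far each reads the other's transcript was not tested.

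Cish encodes a protein that STAT5 induces and that docks on the activated receptor, and its transcript is widely used as a readout of STAT5 activity. It read 10.46 and 10.38 in the arrays labelled KO, against 10.23 and 10.64 in the arrays labelled WT. Both KO arrays lie between the WT arrays. The difference was -0.01 (SE 0.18, limma adjusted p 0.982), and the gap between the WT arrays was 0.41. The interval bounds the ratio between 0.73 and 1.35.

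Socs1 encodes an inhibitor of JAK kinases that is induced by IL-2 and by interferons. It read 6.14 and 6.21 in the arrays labelled KO, against 6.51 and 6.58 in the arrays labelled WT. Both KO arrays are below both WT arrays, and each group's arrays are 0.07 apart. The difference was -0.37 (SE 0.11), 0.774 times the WT level with a 95% interval of 0.64 to 0.94. The limma adjusted p was 0.394, so it did not pass over all genes. Leaving out each array in turn kept the difference between -0.40 and -0.33. Groups with the arrays labelled KO lower and no overlap were seen for 17.5% of all genes. In these bulk samples fewer cells of a type and less RNA per cell cannot be told apart.

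Socs2 encodes a related inhibitor that is best known for restraining growth hormone signalling and is also a STAT5 target. It read 6.88 and 6.68 in the arrays labelled KO, against 6.87 and 6.98 in the arrays labelled WT. KO replicate 2 is the lowest array, and KO replicate 1 lies between the WT arrays. The difference was -0.14 (SE 0.13, limma adjusted p 0.793), with -0.24 without KO replicate 1 and -0.04 without KO replicate 2. The 3 feedback genes together had 0 of 3 past the threshold, and their means were lower in the arrays labelled KO by 0.37 for Socs1, 0.14 for Socs2 and 0.01 for Cish.

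Replicates of the same genotype stood in nearly the same order for all 8 genes. WT replicate 3 read above WT replicate 1 for 8 of 8 genes, against 46.3% of all genes and 54.7% of genes at or above the median gene mean. KO replicate 1 read above KO replicate 2 for 7 of 8, Socs1 being the exception, against 45.5% and 53.1%. Some gaps were small, such as 0.03 between the WT arrays for Il2ra. The sum of the 8 log2 values was 89.53 and 88.62 in the arrays labelled KO, against 88.78 and 90.33 in the arrays labelled WT, so the sums overlap. Over the 75 other pathway genes measured the sum was 651.75 and 647.78, against 648.84 and 654.70. The replicate order was thus not particular to the 8 genes, although the sums of the ligand list and of the other JAK and STAT genes had WT replicate 1 higher. The KO minus WT difference exceeded both replicate gaps for 1 of 8 genes, Socs1, as it did for 27.2% of all genes.

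Bright genes as a whole read higher in the arrays labelled KO, which bears on Il2ra, Il2rb and Jak1. Among the 235 genes with a mean from 14 to 15, where Il2ra and Jak1 lie, the median difference was 0.18, and 90% of them lay between -0.19 and 0.46. Among the 175 genes from 15 to 16, where Il2rb lies, the median was 0.23, with 90% between -0.09 and 0.45. Il2ra at 0.02 and Jak1 at -0.04 were thus below, and Il2rb at 0.33 above, the median of genes of like brightness, all inside these ranges. After a further quantile normalization, which gives the 4 arrays 1 distribution, Il2ra had -0.10, Jak1 -0.18 and Il2rb 0.24, and none passed.

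**Figure D2:**
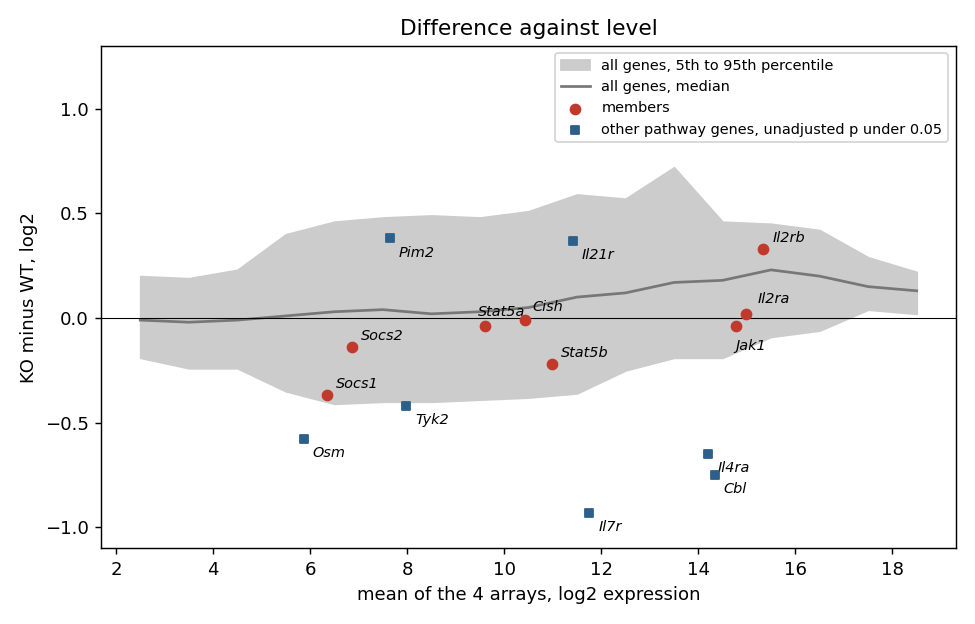
KO minus WT difference on the log2 scale (vertical) against the mean log2 expression of the 4 arrays (horizontal). Red points are the 8 measured genes, blue squares other pathway genes with an unadjusted limma p under 0.05, and the grey band and line the 5th to 95th percentile and the median of all genes at that level. The 8 genes lie inside the band, while Il7r at -0.93, Cbl at -0.75, Il4ra at -0.65, Osm at -0.58 and, at its edge, Tyk2 at -0.42 lie below it.

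Ligands and the other receptors of the gamma chain family were read next. Of 13 measured genes 0 passed the adjusted threshold, KO exceeded WT for 6 and fell short of it for 7, and the median difference was -0.03. Without an array in turn the median lay between -0.06 and 0.01, with 4 above and 8 below without KO replicate 2. Unadjusted limma p under 0.05 was reached by 1 higher gene, against 6.32% of all genes in that direction, and by 2 lower genes, against 3.76%. Il7r, the IL-7 receptor alpha chain, which pairs with the same gamma chain as the IL-2 receptor, read 11.16 and 11.42 in the arrays labelled KO, against 12.12 and 12.32 in the arrays labelled WT. Both KO arrays are below both WT arrays. The difference was -0.93 (SE 0.15), 0.525 times the WT level, with a limma adjusted p of 0.270. Il7r is also among the markers of conventional and CD8 T cells. Of the 5 measured markers on that list, 3 had a positive difference and 2 a negative one, with a median of 0.40. The positive ones were Cd8b1 at 0.73 (SE 0.38), Ccr7 at 0.62 (SE 0.11) and Cd40lg at 0.40 (SE 0.18). Besides Il7r, the negative one was Cd8a at -0.10 (SE 0.08). What part conventional T cells have in the Il7r values was not tested.

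Il4ra, the IL-4 receptor alpha chain, read 14.17 and 13.58 in the arrays labelled KO, against 14.66 and 14.39 in the arrays labelled WT. Its groups do not overlap, and the KO arrays are 0.59 apart. The difference was -0.65 (SE 0.22, limma adjusted p 0.431), and it was -0.35 without KO replicate 2. Il21r, the IL-21 receptor, read 11.70 and 11.50 in the arrays labelled KO, against 11.30 and 11.15 in the arrays labelled WT. Its KO arrays lie above its WT arrays, and the difference was 0.37 (SE 0.13, limma adjusted p 0.455). Il15ra, the IL-15 receptor alpha chain, had -0.16 (SE 0.11).

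The ligand gene Il2 read 4.60 and 4.41 in the arrays labelled KO, against 4.60 and 4.72 in the arrays labelled WT, below the median of every array except WT replicate 3. Il15 and Il21, the genes of sister cytokines, had differences of 0.04 (SE 0.10) and 0.14 (SE 0.09), and both were below every array median. The table carries no detection call, so the difference of a gene this dim can understate its change.

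Of 6 other JAK and STAT genes measured 0 passed, with KO means above WT for 2, below for 4, and a median of -0.13. Without KO replicate 2 the split was 3 and 3 with a median of -0.00, and without WT replicate 3 the median was -0.06. Tyk2, a JAK family kinase used by interferon and IL-12 receptors, read 7.87 and 7.67 in the arrays labelled KO, against 8.19 and 8.19 in the arrays labelled WT. The groups do not overlap, with KO lower and a difference of -0.42 (SE 0.13, limma adjusted p 0.422). Jak2 had 0.02 (SE 0.14), Stat3 -0.13 (SE 0.12) and Stat2 -0.21 (SE 0.16), while Stat4, which IL-12 activates, had 0.30 (SE 0.16). Without WT replicate 1 Stat2 had -0.03 and Stat4 0.48, and without WT replicate 3 they had -0.38 and 0.12.

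Of 19 other negative regulators 0 passed, with 8 higher, 9 lower and a median of 0.00, a split that became 10 and 8 after a further quantile normalization. Without WT replicate 1 it was 3 and 16, with a median of -0.09, and without WT replicate 3 it was 11 and 8, with a median of 0.05. Cbl, a ubiquitin ligase that tags activated receptors and kinases, read 13.78 and 14.14 in the arrays labelled KO, against 14.56 and 14.86 in the arrays labelled WT. Again the KO arrays lie below the WT arrays, and the difference was -0.75 (SE 0.16), 0.595 times the WT level, with a limma adjusted p of 0.317. These values are of the brightest Cbl cluster, and averaging its clusters gave a smaller difference of -0.51. Ptprc, the phosphatase CD45, had -0.18 (SE 0.07). Ptpn2, a phosphatase of JAK kinases and STAT5, had 0.02 (SE 0.12), and Socs3, an inhibitor best known from IL-6 signalling, 0.01 (SE 0.09). Socs3 read below every array median, so its difference can understate a change. Pias1, an inhibitor of STAT proteins, had 0.12 (SE 0.11), and the adaptor gene Dok1 had 0.17 (SE 0.16).

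Of 18 other known STAT5 target genes 0 passed, with 12 higher, 6 lower and a median of 0.12, against 0.01 over all genes. Both KO arrays were above both WT arrays for 9 of the 18, against 20.9% of all genes, and below them for 3, against 17.5%. Among the 9, Gzmb read 7.40 and 8.47 in the arrays labelled KO, against 7.36 and 7.19 in those labelled WT. Dusp6 read 10.61 and 9.55, against 9.36 and 9.54. Their KO replicate gaps of 1.07 and 1.06 exceeded their differences of 0.66 and 0.63. The median kept its sign under the other array scalings and without any 1 array, between 0.08 and 0.14. With dim genes left out it was 0.08, with 10 higher and 6 lower, against 0.04 over all the genes kept. Pim2, a survival kinase, read 7.97 and 7.70 in the arrays labelled KO, against 7.47 and 7.44 in the arrays labelled WT. The KO arrays are the higher ones, with a difference of 0.38 (SE 0.14, limma adjusted p 0.483). Osm, the cytokine oncostatin M, read 5.61 and 5.54 in the arrays labelled KO, against 6.05 and 6.26 in the arrays labelled WT. Both KO arrays are lower, with a difference of -0.58 (SE 0.12, limma adjusted p 0.298).

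Among the remaining targets the survival genes Bcl2 and Mcl1 had differences of -0.13 (SE 0.11) and 0.10 (SE 0.11). The kinase gene Pim1 had -0.01 (SE 0.21), and its replicates were 0.46 apart in the arrays labelled KO and 0.31 in those labelled WT. Myc, a driver of growth, had 0.18 (SE 0.13), Nfil3, a transcription factor, 0.33 (SE 0.14), and Bcl6, a repressor that opposes STAT5, -0.21 (SE 0.12).

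The branch through PI3 kinase, mTOR and MAP kinases, which the receptor also feeds, had 0 of 19 measured genes past the threshold. Of these 6 were higher and 12 lower (9 and 10 after median-centring), with a median of -0.05, and 0 had an unadjusted limma p under 0.05. Pik3cb and Pik3ca, catalytic subunits of PI3 kinase, had 0.23 (SE 0.12) and -0.23 (SE 0.14). Sos2, an exchange factor for Ras, had 0.28 (SE 0.13), and the kinase gene Akt2 had -0.17 (SE 0.12). The list median was 0.01 without KO replicate 2 and 0.00 without WT replicate 3.

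**Figure D3:**
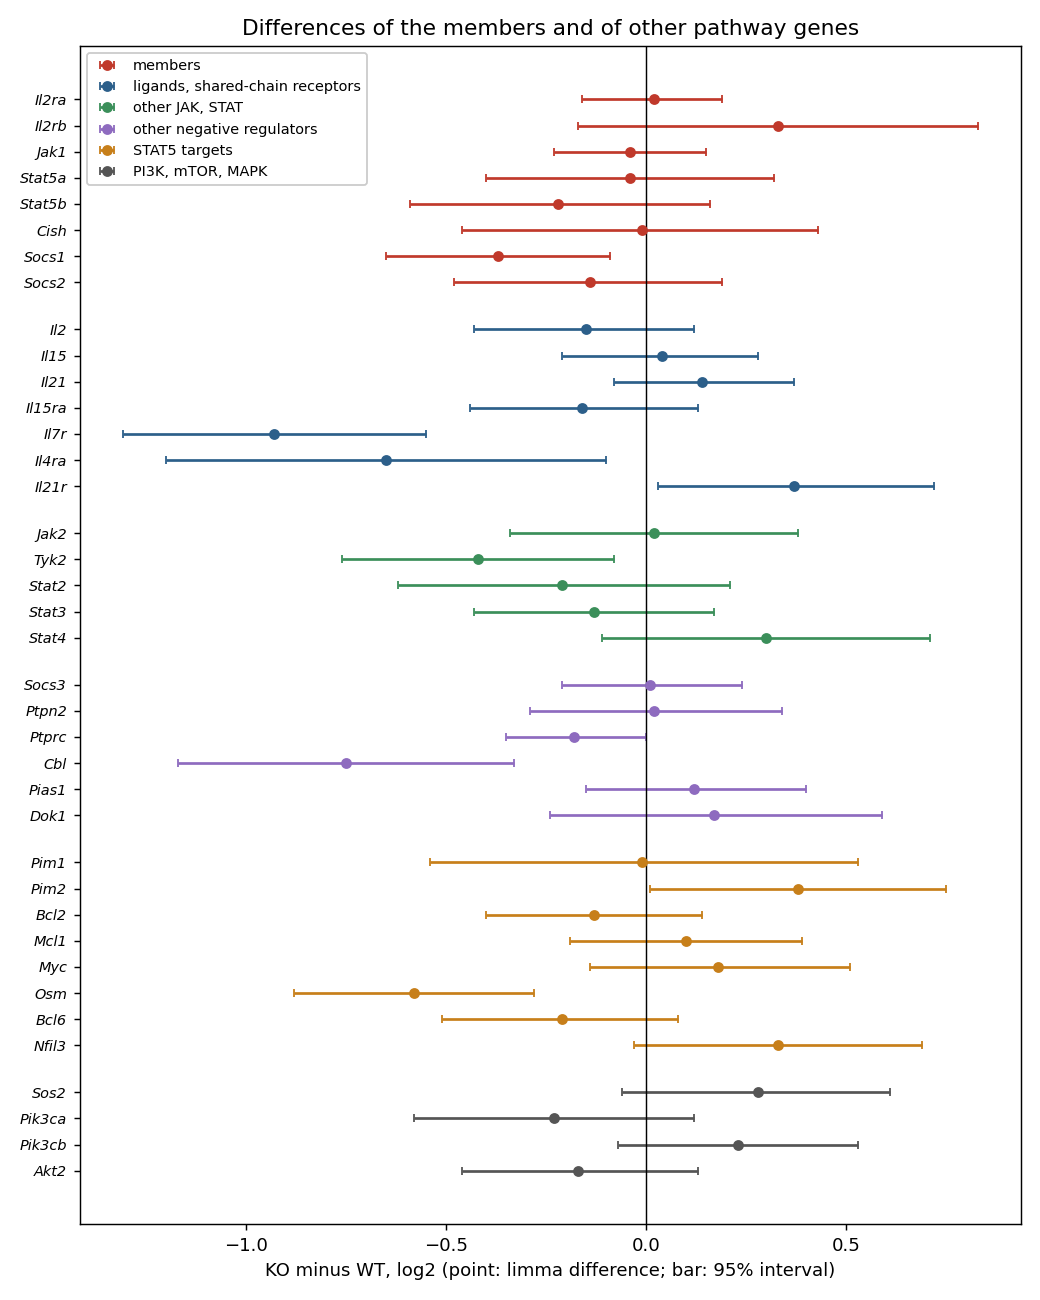
KO minus WT differences on the log2 scale (horizontal) for the 8 measured genes, labelled members, and for the other pathway genes named in the text except Gzmb and Dusp6, coloured by role. Points are limma differences and bars their 95% intervals, unadjusted. Among the 8 genes the bar lies wholly off 0 for Socs1 only, and none of the genes shown passed an adjusted p under 0.05.

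Markers of antibody-secreting cells were also set against the labels. Jchain, which joins antibody units, read 7.66 and 7.49 in the arrays labelled KO, against 6.62 and 6.47 in the arrays labelled WT. Over the 11 measured B and plasma cell markers the summed log2 level was 66.13 and 66.15 in the arrays labelled KO, against 62.10 and 63.68 in those labelled WT, with 5 higher and 6 lower. The largest differences were 1.81 for the antibody gene Ighg2b (SE 0.12, limma adjusted p 0.106) and 1.03 for Jchain. Mzb1 had 0.40, Derl3 0.27 and Xbp1 0.21, and the 6 lower genes lay between -0.19 and -0.02, so the sum is not a shift of the whole list. Mzb1 read below the array median in 2 arrays and Derl3 in 3, and the Xbp1 groups overlap. Sdc1, a plasma cell marker among the 6 lower genes, had -0.03 and read below every array median. The log2 values have no true 0, so no marker can be read as absent. The part of such cells in the values of Socs1 and Il7r was not tested.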

How the data were processed

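The values are those the authors deposited, as log2 expression of 65528 transcript clusters on 4 arrays, made with RMA and Transcriptome Analysis Console per the submitters' processing notes. Base 2 is inferred from RMA's usual output and the range of 1.82 to 19.38. No source used here gives the hybridisation, the probe positions or the annotation build. Groups came from the titles, and the labels give no batch. Clusters with 1 gene symbol (31037) were named through the platform table and updated by RefSeq (GRCm38.p6). Those with several (1480) or none listed (33011) gave no gene a value. The brightest cluster was kept where a gene had more than 1 (432 genes), which left 30492 genes. KO minus WT was fitted with limma 3.58.1 in R 4.3.3 (two-sided; lmFit and eBayes, the prior variance following intensity). P-values were adjusted over all genes by Benjamini-Hochberg, with a threshold of 0.05 and no filter on dim genes. The fit was tested on simulated data. With 2 arrays a group, no exact permutation p can fall below 0.333. The members, lists and tests were chosen with earlier results of these data known. Named in every case were the members, Il2, Il15, Il15ra, Il7r, Il4ra, Jak2, Tyk2, Stat3, Socs3, Ptpn2, Pim1, Bcl2, Myc, Mcl1 and, in each list, the 2 genes of smallest p in each direction. The rule also holds a gene not reported here. Alternatives were median-centring, a further quantile normalization, leaving out dim genes, averaging clusters, testing every cluster, eBayes without a trend or robust, leaving out each array, and a threshold of 0.1.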

Additional observations from a re-analysis of the deposited data

How the results depend on the processing

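Under every alternative run, limma gave no adjusted p under 0.05 to any of the 8 measured members or to any gene of the other pathway lists. Of the members, 1 had an unadjusted p under 0.05 with all arrays. The number of genes called over the whole table, 2 as reported, was 1 after median-centring, 0 after a further quantile normalization, 13 with dim genes left out, 0 without an intensity trend, 0 with robust settings, 4 when every transcript cluster was tested, and 0 to 0 without each array in turn. With all arrays 3072 genes had an unadjusted limma p under 0.05. Differences near 0 changed sign. Il2ra had -0.10 after a further quantile normalization. Cish had 0.01 after median-centring, and Pim1 0.02 after median-centring and 0.04 after a further quantile normalization. Without each array in turn Stat5a ranged from -0.12 to 0.04, Cish from -0.22 to 0.19, Il15 from -0.06 to 0.14, Jak2 from -0.08 to 0.13, Socs3 from -0.02 to 0.06, Ptpn2 from -0.01 to 0.07, Pim1 from -0.23 to 0.23 and Dok1 from -0.00 to 0.36. The cause was not tested. Of 424 refitted differences of 39 genes, 407 kept their sign and side of the threshold. Leaving out dim genes, testing every cluster, and eBayes without a trend or robust do not alter a gene's difference. Those refits could change its p-value but not its sign. Leaving out 1 array moved the difference by over 1.5 times, or changed its sign, for 28 of the 39 genes, none of them called. Leaving out an array leaves 1 array in a group, which is assumed to vary like the other group. No paired analysis was possible because the groups share only 1 replicate number.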
